A study of Mus musculus with 6 samples.

Results

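Complement is a set of plasma and membrane proteins that mark surfaces for uptake and can punch holes in membranes, and the 9 genes examined here stand for its main steps: the central component C3, the classical pathway genes C1ra, C1s1 and C4b, the alternative pathway gene Cfb, the regulators Serping1, Cd55 and Cd59a, and the receptor C3ar1. They were chosen by gene symbol and not by a threshold on the values, though with earlier results of these data known. Of the 9 genes, 8 were analysed, and Cd55 was not analysed here. Of the 29616 genes in the table, 17442 averaged 10 or more normalized counts and were tested, among them 5 of these 9 genes (C3, C1ra, C1s1, Cd59a and C3ar1).

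The RNA sequencing set 3 control libraries against 3 libraries of mice treated with dexamethasone, a glucocorticoid drug. The strain was C57BL/6 per the labels (C57BL/6J in the study). Per the study, dexamethasone was injected daily at 0.08 µg/g for 4 weeks from 8 weeks of age, and the control mice received saline. The labels name the material only as bone cells, and the study describes a sort for Osteocalcin-positive cells from bones freed of marrow. How many animals made up a library is not given in the sources used here, so the p-values measure the spread between these libraries only. The libraries held between 72596611 and 89910728 reads. Values are read counts divided by a size factor for each library, called normalized counts below.

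In the classical pathway, antibody-bound C1q activates the proteases C1r and C1s, C1s cleaves C4 and C2, and the products cleave C3. The lectin pathway reaches the same C4 and C2 through sugar-binding collectins and ficolins and the MASP proteases. The alternative pathway amplifies C3 cleavage on surfaces through factor B and factor D. Membrane and plasma regulators hold these steps back, and the C3a and C5a receptors sense the fragments released. The liver makes most plasma complement, and stromal cells of many tissues make components of their own, C1r and C1s among them.

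Dexamethasone libraries held more C3 and less C1ra and C1s1 than control libraries. C3 rose from 14.5 ± 3.91 to 94.4 ± 15.9 normalized counts (SD, n = 3 each). C1ra and C1s1, the most abundant members, fell from 17288 ± 717 to 7957 ± 447 and from 15906 ± 479 to 6576 ± 122 normalized counts. In such bulk libraries, fewer cells of a type and less RNA per cell cannot be told apart. No difference was detected for Cd59a and C3ar1, and C4b, Cfb and Serping1 had too few reads for the test. A gene was called differentially expressed where the limma adjusted p-value was under 0.05 and the log2 fold change at least 1 in either direction. By this rule 3 members were called, 1 higher and 2 lower, where 22.3% of all tested genes were called, 11.7% higher and 10.6% lower with dexamethasone. The median log2 fold change of the 5 tested members was -0.25, and that of all tested genes was 0.0007.

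**Figure D1:**
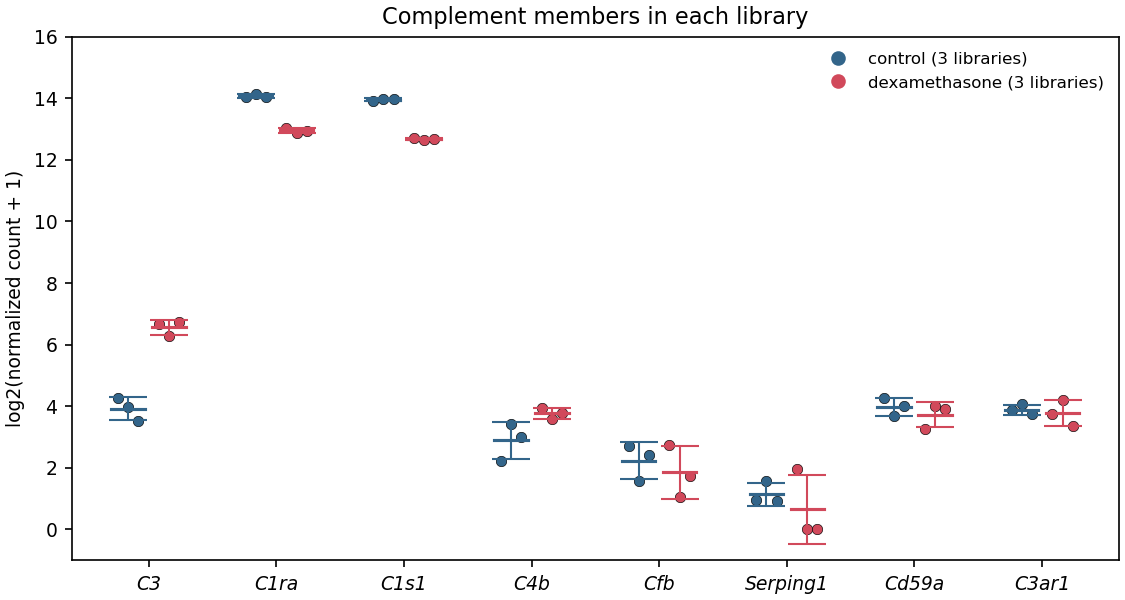
Level of each analysed member in each library, as log2(normalized count + 1) on the vertical axis, with control libraries in blue and dexamethasone libraries in red. Points are libraries, and bars give the mean and SD of 3 libraries. The groups lie apart for C3, C1ra, C1s1 and C4b and overlap for Cfb, Serping1, Cd59a and C3ar1.

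The stretches upstream of C1ra, C1s1 and C3 are shown because these are the 3 members that changed. Each is the 250 bases before the annotated transcription start in RefSeq for GRCm38.p6, written 5′ to 3′ in the direction of transcription. The C1ra stretch is chr6:124512371-124512620 on the plus strand, the C1s1 stretch is chr6:124542360-124542609 on the minus strand, and the C3 stretch is chr17:57228137-57228386 on the minus strand. C1s1 has a further annotated start, whose upstream bases largely repeat those shown. Capitals mark matches to the motifs searched.
C1ra: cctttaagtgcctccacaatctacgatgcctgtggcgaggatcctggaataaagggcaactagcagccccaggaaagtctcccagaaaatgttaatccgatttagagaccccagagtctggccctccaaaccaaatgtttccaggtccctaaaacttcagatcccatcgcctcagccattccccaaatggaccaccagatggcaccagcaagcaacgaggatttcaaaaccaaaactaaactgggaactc
C1s1: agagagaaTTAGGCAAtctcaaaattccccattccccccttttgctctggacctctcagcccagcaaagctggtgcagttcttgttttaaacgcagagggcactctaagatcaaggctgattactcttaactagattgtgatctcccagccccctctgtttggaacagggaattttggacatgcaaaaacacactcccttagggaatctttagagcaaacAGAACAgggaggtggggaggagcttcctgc
C3: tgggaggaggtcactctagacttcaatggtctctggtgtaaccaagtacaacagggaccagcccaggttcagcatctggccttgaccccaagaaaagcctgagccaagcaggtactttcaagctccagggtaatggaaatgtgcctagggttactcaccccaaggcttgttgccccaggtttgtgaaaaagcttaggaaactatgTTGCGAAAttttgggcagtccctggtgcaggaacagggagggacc
The motifs, searched on both strands, were the glucocorticoid receptor palindrome (GNACA and TGTNC, 3 bases apart), its single arm AGAACA, the STAT motif TTCNNNGAA, the C/EBP motif TTGCNNAA and the core of the interferon-stimulated response element (GAAA and GAAA, 2 bases apart). Of 32851 upstream stretches of the same length, 0.387% held the palindrome, 16.1% AGAACA, 7.02% the STAT motif, 9.56% the C/EBP motif and 2.98% the interferon element. The C3 stretch held a C/EBP match from -45 to -38, counted from the start. C/EBP factors are liver and acute-phase regulators. The C1s1 stretch held AGAACA from -30 to -25 and a C/EBP match from -242 to -235, on the other strand. The C1ra stretch held none of these motifs. Upstream stretches were matched for 6 of the 9 members, and the glucocorticoid receptor palindrome was in none of them. A match is a description of letters only, and binding was not measured here.

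C3 (ENSMUSG00000024164, chromosome 17) encodes the protein on which all activation routes meet. Control replicates 1, 2 and 3 held 18.4, 14.7 and 10.5 normalized counts of C3, and the dexamethasone replicates, in the same order, 101, 76.3 and 106. These are 20, 15 and 12 reads against 106, 70 and 91 reads. The lowest dexamethasone library was above the highest control library by more than the range within either group. The log2 fold change was 2.64 (standard error 0.248, 95% confidence interval 2.12 to 3.15, limma adjusted p = 8.24e-10), and the means differed 6.50-fold. All 5062 windows of 75 bases along its longest annotated transcript were found in no other gene. C3 was a low-level transcript in both groups: per kilobase of annotated exon, its mean was 2.82 normalized counts in control and 18.4 in dexamethasone libraries, against 5799 and 2669 for C1ra.

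C1ra (ENSMUSG00000055172, chromosome 6) encodes the mouse C1r protease that activates C1s. Its values were 16737, 18098 and 17027 normalized counts in controls and 8426, 7536 and 7909 after dexamethasone. Every dexamethasone library was below every control library, and the control mean was 2.17 times the dexamethasone mean. The log2 fold change was -1.12 (standard error 0.0409, 95% confidence interval -1.20 to -1.04, limma adjusted p = 4.99e-18). C1ra has a close copy, C1rb, which holds 40.1% of the 75-base windows of the C1ra transcript, so reads could be split between them. C1rb had 2.6 to 3.7 normalized counts in control and 2.3 to 4.8 in dexamethasone libraries, and the log2 fold change of the summed pair was -1.12. With C1rb this low the sum could hardly differ from C1ra, and it does not show how shared reads were assigned.

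C1s1 (ENSMUSG00000038521, chromosome 6) encodes the C1s protease that cleaves C4 and C2. It had 15356, 16222 and 16142 normalized counts in controls and 6712, 6475 and 6541 after dexamethasone. The 2 groups were again fully apart, with less spread among the dexamethasone libraries than among the controls. The log2 fold change was -1.27 (standard error 0.0354, 95% confidence interval -1.35 to -1.20, limma adjusted p = 1.70e-20). Its copy C1s2 holds 14.7% of the C1s1 windows, and an annotated antisense transcript, Gm16567, covers 18.4% of the C1s1 exon bases. How the count handled strand is not given in the sources used here, so reads of that transcript may be included. The ratio of C1s1 to C1ra normalized counts was 0.921 ± 0.0260 in control and 0.828 ± 0.0313 in dexamethasone libraries (SD, n = 3 each). The ratios were 0.917, 0.896 and 0.948 against 0.797, 0.859 and 0.827, which do not overlap. The exact two-sided permutation p was 0.1, the smallest that 3 against 3 libraries allow.

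The C1r and C1s genes lie next to each other on chromosome 6, where C1ra, C1s1, C1s2 and the related C1rl fell. The tested flanking genes had smaller or positive fold changes, and the flanking gene Clstn3, too low for the test, was also lower after dexamethasone. In order along the chromosome they are Pex5, Clstn3, C1rl, C1ra, C1s1, C1rb, C1s2, Lpcat3 and Emg1. C1rl, a protease related to C1r, had 2778, 3202 and 2983 normalized counts in controls and 1043, 865 and 951 after dexamethasone. Its log2 fold change was -1.65 (limma adjusted p = 4.63e-18). C1s2 had 39, 32 and 34 reads in controls and 15, 11 and 3 reads after dexamethasone, a difference of -1.79 on the log2 scale (standard error 0.392, limma adjusted p = 2.60e-04). Without dexamethasone replicate 3 it was -1.24. C1s2 shares 16.3% of its windows with the far more abundant C1s1. Of the flanking genes, Pex5 (peroxisomal import) had a log2 fold change of -0.09, Lpcat3 (phospholipid remodelling) one of 0.20 and Emg1 (ribosome assembly) one of 0.55, with limma adjusted p-values of 0.0473, 8.33e-05 and 3.19e-12. Clstn3 was below the limit for the test, at 10.5 to 13.7 normalized counts in control and 1.2 to 4.8 in dexamethasone libraries.

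**Figure D2:**
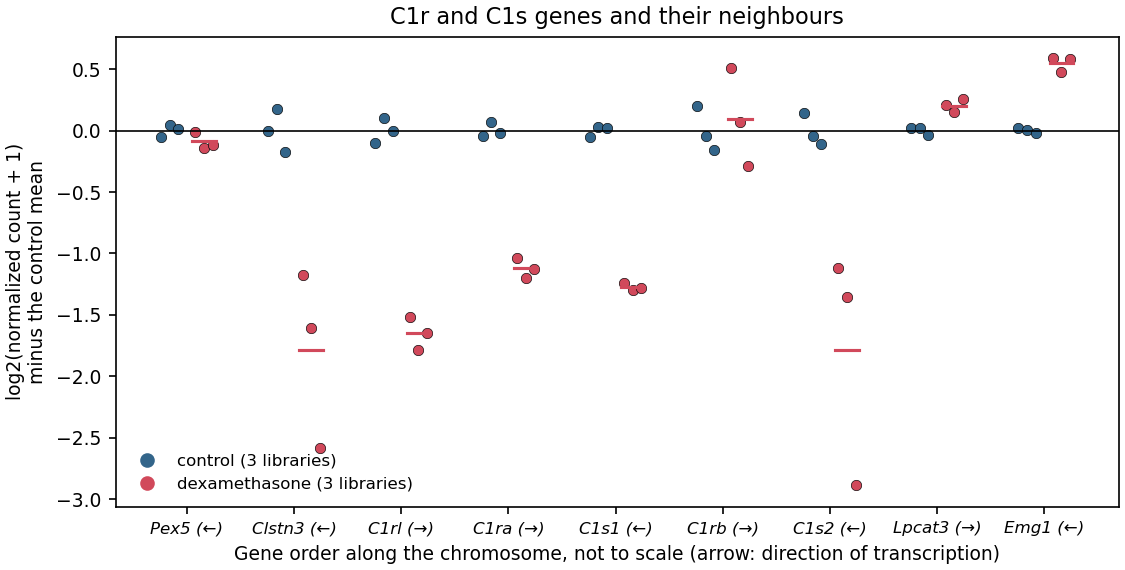
Genes of the C1r and C1s neighbourhood in chromosomal order, with arrows for the direction of transcription and the distances not to scale. The vertical axis is log2(normalized count + 1) minus the mean of the 3 control libraries, each point is a library, and the line is the dexamethasone mean. C1rl, C1ra and C1s1 lie below the control level by 1.65, 1.12 and 1.27, and Lpcat3 and Emg1 lie above it by 0.20 and 0.55. Clstn3 and C1s2, at low counts, also lie below the control level.

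C4b and Cfb, whose products form the C3-cleaving enzymes of the classical and the alternative pathway, were near the limit of detection. C4b (ENSMUSG00000073418, chromosome 17) had 4, 10 and 8 reads in controls and 15, 10 and 11 reads after dexamethasone. After scaling these were 3.7, 9.8 and 7.0 against 14.3, 10.9 and 12.8 normalized counts, so the groups did not overlap, as for 74.7% of all tested genes. The exact two-sided permutation p was 0.1, the smallest possible, and without a limit on low values the limma adjusted p was 0.12. Its close copy C4a holds 23.5% of its windows, and with C4a summed into it the difference was -0.30 on the log2 scale (limma adjusted p = 0.134), against 0.88 for C4b alone. C4a averaged 83.1 normalized counts in control and 59.7 in dexamethasone libraries, against 6.83 and 12.7 for C4b. The sum thus mostly reads C4a, and it cannot tell the sign of the C4b difference. Cfb (ENSMUSG00000090231, chromosome 17) had 6, 2 and 5 reads in controls and 6, 1 and 2 reads after dexamethasone, with overlapping groups (exact two-sided permutation p = 0.7). An annotated read-through gene on the same strand, Gm20547, covers 79.5% of the Cfb exon bases. Reads that fall in both genes may have been left out of the count, so the Cfb level is uncertain.

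The regulators among the members were low or undetected. Serping1 (ENSMUSG00000023224), the C1 inhibitor that inactivates C1r and C1s, had 1, 2 and 1 reads in controls and 3, 0 and 0 reads after dexamethasone. All 6 values were at or under 3 reads, the number that a count of 0 allows, which covers counting error only. A difference in Serping1 was therefore not detectable at this depth, in the same libraries that held 5625 to 18369 reads of C1s1. All Serping1 windows were found in no other gene. Cd59a (ENSMUSG00000032679, chromosome 2), which blocks the membrane attack complex, had 18.4, 11.7 and 14.9 normalized counts in controls and 8.6, 15.3 and 14.0 after dexamethasone. Its groups overlapped, and the log2 fold change was -0.25 (95% confidence interval -1.01 to 0.51, limma adjusted p = 0.552). That interval includes the cut-off of 1 on the side of a decrease and leaves an equal level possible.

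C3ar1 (ENSMUSG00000040552, chromosome 6), the receptor for the C3a fragment, had 13.8, 15.7 and 12.3 normalized counts in controls and 12.4, 17.4 and 9.3 after dexamethasone. Replicate 1 with dexamethasone lay within the control range, replicate 2 above it and replicate 3 below it. The log2 fold change was -0.12 (95% confidence interval -0.88 to 0.64, limma adjusted p = 0.78), so a change of the size seen for C3 or for C1ra lies outside this interval.

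Per kilobase of annotated exon, the control means ran from C1ra and C1s1, at 5799 and 5084 normalized counts, to Cd59a at 8.29, C3ar1 at 3.23, C3 at 2.82, Cfb at 1.40, C4b at 1.20 and Serping1 at 0.538. Between C1s1 and Cd59a the level dropped by a large step. In the dexamethasone libraries C1ra and C1s1 were at 2669 and 2102, and C3 at 18.4 had moved above Cd59a at 6.96 and C3ar1 at 3.03, followed by C4b at 2.22, Cfb at 1.08 and Serping1 at 0.410. Within the lower group of genes the neighbours rest on few reads, and their order within a group was not tested.

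The other complement genes were taken from a list of 45 genes sorted by role, of which 36 were analysed and 17 were tested. Of these 17, 6 were called: C5ar1 and Itgb2 higher, and C1s2, C1rl, Colec11 and Susd4 lower. Of all tested genes, 11.7% were called higher and 10.6% lower, 22.3% in all. At an adjusted p under 0.05 alone, 3 were higher and 8 were lower, against 72.5% of all tested genes in either direction. Their median log2 fold change was -0.28, and 11 of the 17 had groups that did not overlap, against 74.7% of all tested genes.

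**Figure D3:**
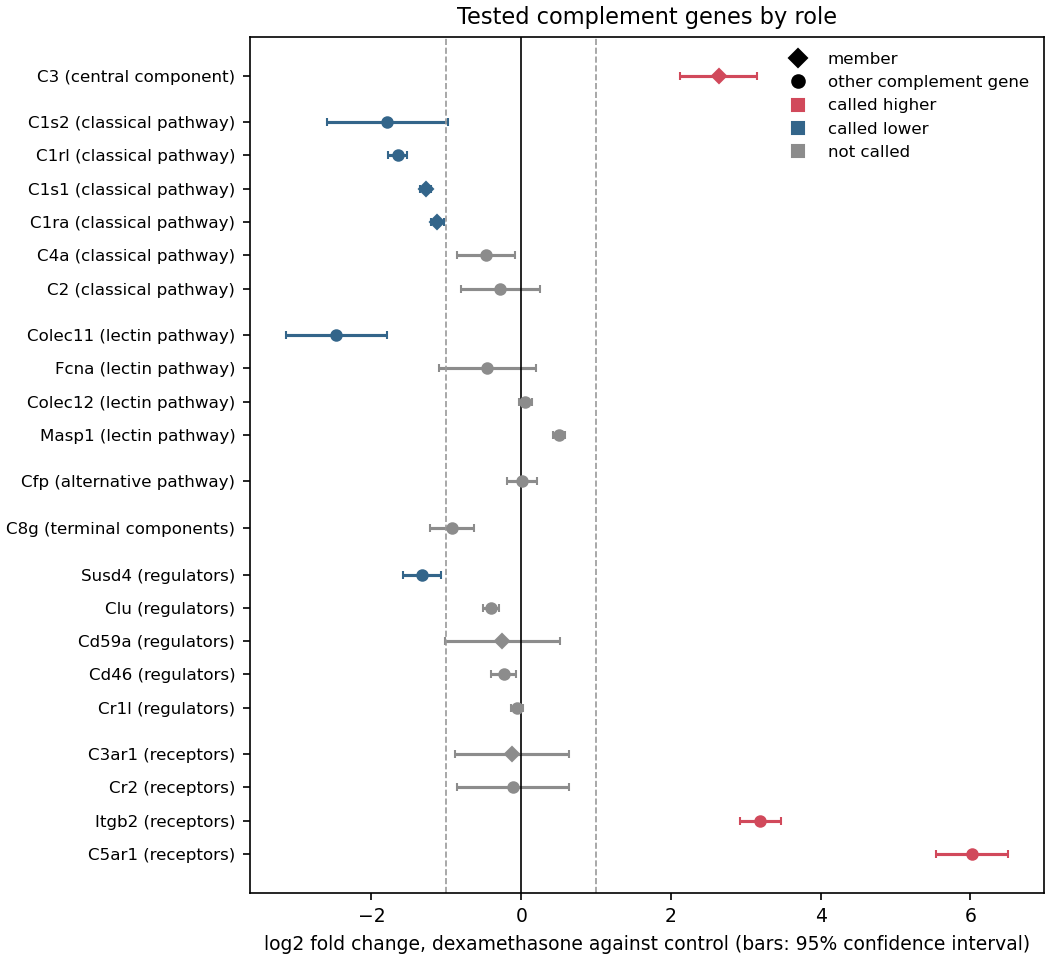
Log2 fold change of dexamethasone against control libraries for the 5 tested members (diamonds) and the 17 other tested complement genes (circles), grouped by role. Horizontal bars are 95% confidence intervals, dashed lines mark a log2 fold change of 1 in either direction, and colours give the call. C3, Itgb2 and C5ar1 lie above the upper line, at 2.64, 3.20 and 6.02, and C1ra and C1s1 lie below the lower line with C1rl, C1s2, Colec11 and Susd4.

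Besides the C1r and C1s genes, the classical list held C4a and C2. C4a, which shares 23.6% of its windows with C4b, had 75, 100 and 94 reads in controls and 67, 61 and 42 reads after dexamethasone. Its log2 fold change was -0.47 (limma adjusted p = 0.0281), with an adjusted p of up to 0.149 when a library was left out, in that case control replicate 2. C2 had 31, 46 and 71 reads against 37, 34 and 29 reads and a difference of -0.28 on the log2 scale (limma adjusted p = 0.332). The read-through gene Gm20547 covers 42.8% of the C2 exon bases on the same strand and holds 55.6% of the C2 windows, so the C2 level is uncertain as well. The 3 C1q chains were not analysed here.

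In the lectin pathway, the gene of the protease Masp1 rose while C1ra and C1s1 fell. Masp1 had 16202, 17314 and 16316 normalized counts in controls and 24880, 22591 and 23371 after dexamethasone, a difference of 0.51 on the log2 scale (limma adjusted p = 2.33e-11), under the cut-off of 1. Within each library the ratio of Masp1 to C1ra went from 0.961 ± 0.00616 to 2.97 ± 0.0253 (SD, n = 3 each, exact two-sided permutation p = 0.1, the smallest possible). This ratio does not depend on the scaling of the libraries. Colec11, a soluble collectin, had 42, 36 and 52 reads in controls and 7, 5 and 6 reads after dexamethasone, a difference of -2.47 on the log2 scale (limma adjusted p = 2.87e-07). Colec12, a membrane collectin and, at 3155 and 3280 per kilobase, the most abundant of the 7 lectin pathway genes analysed, had 27524 ± 1055 in control and 28618 ± 1688 in dexamethasone libraries (SD, n = 3 each), a log2 fold change of 0.06 (95% confidence interval -0.03 to 0.14, limma adjusted p = 0.239) whose sign changed with the scaling. Fcna, a ficolin, had a difference of -0.45 on the log2 scale (limma adjusted p = 0.199).

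For the alternative pathway, properdin (Cfp), which stabilizes the C3-cleaving enzyme, had 259 ± 17.0 and 260.3 ± 20.97 normalized counts in control and dexamethasone libraries (SD, n = 3 each, log2 fold change 0.01, 95% confidence interval -0.20 to 0.21, limma adjusted p = 0.956). Factor D (Cfd), which cleaves factor B and is abundant in fat cells, had 1, 4 and 3 reads in controls and 19, 14 and 15 reads after dexamethasone, under the limit for the test.

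Among the other regulators, 4 were tested and 1 was called. Susd4, a membrane protein that binds C1q, fell from 307 ± 49.0 to 121 ± 14.0 normalized counts (SD, n = 3 each, log2 fold change -1.33, limma adjusted p = 6.97e-10). Clusterin (Clu), which blocks assembly of the membrane attack complex, had a difference of -0.41 on the log2 scale (limma adjusted p = 2.43e-07). Cr1l, the mouse Crry protein that stops C3 cleavage on cell membranes, had 5224 ± 119 and 5042 ± 179 normalized counts (SD, n = 3 each, log2 fold change -0.05, limma adjusted p = 0.23, under 0.05 at other scalings), at 505 and 487 per kilobase of exon, above the 70.7 and 60.4 of Cd46. Cd46, a membrane cofactor for C3b breakdown, had a difference of -0.23 on the log2 scale (limma adjusted p = 0.0125), and without dexamethasone replicate 1 its adjusted p was 0.109. In the terminal pathway C8g, the gamma chain of C8, fell from 188 ± 21.4 to 99.1 ± 15.4 normalized counts (SD, n = 3 each, log2 fold change -0.92, limma adjusted p = 2.49e-06), under the cut-off of 1. Hc (C5), C6, C7, C8a and C9 had 3 reads or fewer in every library.

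Of the receptors for the cleavage fragments C3a and C5a, C5ar1 rose and C3ar1 showed no detectable change, and the difference between them was not tested. C5ar1, the main C5a receptor, had 3.7, 4.9 and 8.8 normalized counts in controls and 412, 419 and 421 after dexamethasone. The means differed 72.1-fold, and the log2 fold change was 6.02 (standard error 0.233, 95% confidence interval 5.53 to 6.50, limma adjusted p = 1.71e-17), whereas the interval for C3ar1 ended at 0.64. Itgb2, the shared beta chain of the complement receptors CR3 and CR4, had 65.2, 53.8 and 44.8 normalized counts in controls and 496, 482 and 533 after dexamethasone, a difference of 3.20 on the log2 scale (limma adjusted p = 4.91e-17). Its partner chains Itgam and Itgax had 1 to 6 and 0 to 4 reads in controls and 1 to 4 and 2 to 7 reads after dexamethasone, and the Itgam level is uncertain, since Gm49368 on the same strand covers 68.7% of its exon bases. Cr2, the receptor for C3d, had a log2 fold change of -0.11 (95% confidence interval -0.85 to 0.64, limma adjusted p = 0.799), with a sign that changed under quantile normalization.

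Markers of other cells moved beside these genes. Of 6 pan-blood markers 3 were tested: Cd53 rose from 15.7 to 283 normalized counts, Coro1a and Laptm5 fell, and Ptprc, which marks blood cells in general, was at 1.8 to 2.9 and 2.9 to 5.8. The summed level of the pan-blood list was 58.9 to 70.7 in control and 283 to 340.1 in dexamethasone libraries, most of the latter from Cd53. Of 10 macrophage markers 7 were tested, with Cd68, Cd14, Mrc1 and Cd163 called higher and Lyz2 called lower. Mertk, the most abundant of the list after dexamethasone, went from 2401 to 4741 normalized counts (log2 fold change 0.98, limma adjusted p = 1.73e-15), and Csf1r differed by -0.67 on the log2 scale (limma adjusted p = 0.0125). The sum over the list was 3837 to 3939 in control and 6031 to 6833 in dexamethasone libraries, and Fcgr1 was at 3 reads or fewer in every library. Of 7 neutrophil markers 4 were tested and 0 were called by limma, of which S100a8 had an adjusted p of 8.74e-08 and a log2 fold change of 0.87. Of 6 adipocyte markers, 2 were tested: Fabp4 was called higher, from 2.16 to 1448 normalized counts, and Lipe had a log2 fold change of -0.25. Summed, the list was at 233 to 253 in control and 1601 to 1710.5 in dexamethasone libraries, most of the latter from Fabp4. Adipoq was at 0.88 to 8.3 and 1.1 to 1.9 normalized counts. Mean normalized counts went from 2.41 to 1.02 for Plin1 and from 1.22 to 0.388 for Cidec. Lep had 0 reads in each control and 1 read in each dexamethasone library. The part of these cells in the levels of C3, C5ar1, Itgb2 and Cfd was not tested. Of 8 endothelial markers 4 were tested, and Esam was called higher. The other tested ones were Pecam1, Tek and Egfl7, with log2 fold changes of 0.74, -0.75 and 0.12 (limma adjusted p = 0.0419, 0.146 and 0.802). Cdh5 had 0 to 2 reads in controls and 1 to 2 reads after dexamethasone. Hepatocyte markers summed to at most 4.89 and 9.81 normalized counts in a control and a dexamethasone library.

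**Figure D4:**
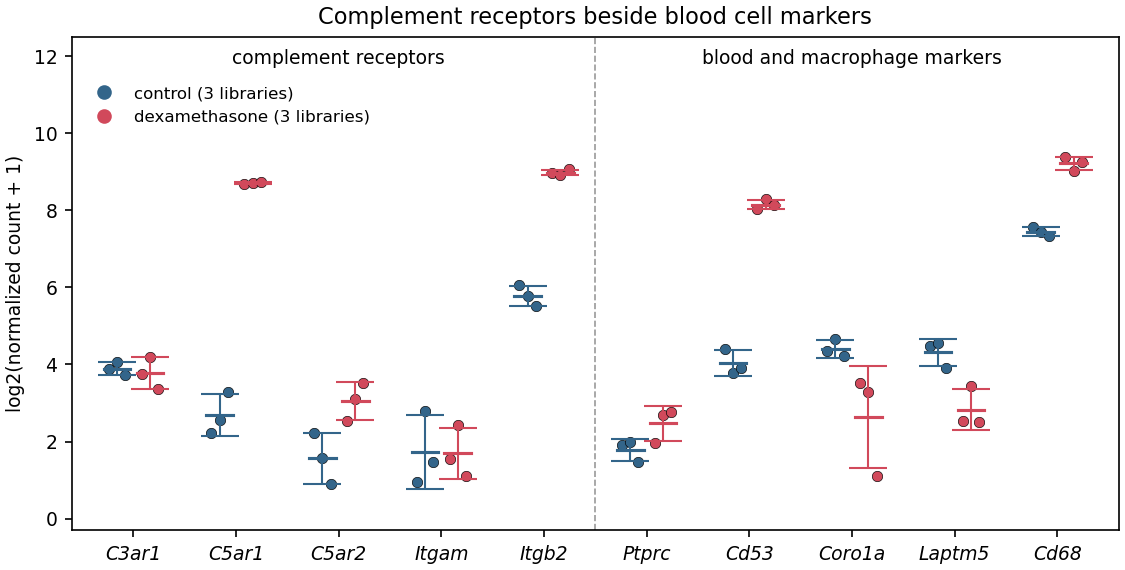
Complement receptor genes (left) and blood and macrophage marker genes (right) in each library, as log2(normalized count + 1), with control libraries in blue and dexamethasone libraries in red. Points are libraries, and bars give the mean and SD of 3 libraries. C5ar1, Itgb2, Cd53 and Cd68 are higher in all 3 dexamethasone libraries, and Coro1a and Laptm5 are lower in all 3. C3ar1 and Ptprc stay at or under 17.4 normalized counts in every library. Of the macrophage list only Cd68 is shown, and Lyz2, which was called lower, is not.

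Most tested genes of the osteoblast lineage also fell beside C1ra and C1s1, while Dmp1 and Phex rose. Of 12 osteoblast and osteocyte markers 11 were tested, with 8 called lower and Dmp1 called higher. Dmp1 went from 38.5 to 5639 normalized counts (log2 fold change 7.16, limma adjusted p = 2.12e-28). Phex and Mepe were not called, with log2 fold changes of 0.60 and -0.77 (limma adjusted p = 2.27e-05 and 0.0749). The summed level of the whole osteoblast and osteocyte list was 1976660 to 2103810 normalized counts in control and 757083 to 851506 in dexamethasone libraries. Col1a2 and Col1a1 were the most abundant of the list. Bglap, the Osteocalcin gene named in the sort, had 98.2, 102 and 122 normalized counts in controls and 9.5, 12.0 and 15.1 after dexamethasone. Fibroblast markers moved both ways: of 9 tested, 3 were called higher and 2 lower. The part of the cell makeup in the levels of C1ra and C1s1 was not tested.

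By Pearson's r over the 6 libraries on log2(normalized count + 1), the tested genes most like C3 were Ggct (0.999), Nt5c3b (0.999) and Nipsnap3b (0.998). In all, 146 genes had an r of at least 0.99 with C3. The measure reads the shape over the libraries and not the size: Ggct had 481, 459 and 413 normalized counts in controls and 746, 702 and 777 after dexamethasone. The 6 libraries form 2 groups, and the r values are given as a description.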

How the data were processed

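RNA was extracted from bone cells of 3 control and 3 dexamethasone samples, and libraries were made with the KAPA Stranded mRNA-Seq Kit. Per the labels, the authors used bcl2fastq, STAR 2.7.10a and DESeq2 1.36.0 with the mouse build GRCm39. The annotation release and how strand was handled are not given in the sources used here. The deposited signal of each gene is a read count divided by the size factor of its library, as the authors normalized it with DESeq2. Dividing by what 1 read is worth in a library gave whole reads for 100% of the values (tolerance 0.01). There were 0 columns left unused.

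Normalized counts were compared with limma 3.58.1 in R 4.3.3 on log2(normalized count + 1), a scale that understates the change of low genes. Genes with a mean of at least 10 over the 6 libraries were tested, with Benjamini-Hochberg adjustment over all 17442. The study tested its counts with DESeq2. On the recovered reads edgeR 4.0.16 called 3944 genes and DESeq2 1.42.0 called 3870, against 3894 by limma. The method was tested on simulated data. Permutation tests were exact and two-sided. Replicate libraries differed by more than sampling noise, as chi-square over degrees of freedom was 3.27 to 26.2.

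The members and gene lists were chosen with earlier results of these data known. Named were all members, the copies and overlapping genes of members, and, of the other complement genes, every gene called and up to 3 per role with the highest mean. The chromosomal neighbours, the motifs, the untested genes with values and some markers were named after values were seen. For the markers, the planned rule was to name the 2 with the highest mean in a list, and it was not kept in every list. Names, exon lengths, overlaps and 75-base windows came from GENCODE M21 and upstream sequences from RefSeq, both on GRCm38, and no coordinates were converted. Some complement regulators are not reported here. For 28087 of 29616 identifiers a symbol was found. Alternatives were other pseudocounts, filters, scalings and tests, and each library left out in turn. The summing of paralog pairs was added after seeing the data.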

Additional observations from a re-analysis of the deposited data

How the results depend on the processing

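C3, C1ra and C1s1 kept their direction and call under every alternative that tested them. C3 ranged from 2.09 to 2.81, C1ra from -1.33 to -1.08 and C1s1 from -1.48 to -1.26 on the log2 scale. With a filter of a mean of at least 100, C3 was not tested, so 0 members were called higher, and 2170 genes (1350 higher, 820 lower) and 2 other complement genes lower were called. With no filter, 5326 genes (2631 higher, 2695 lower) were called, and 10 other complement genes, 4 of them higher and 6 lower. With at least 10 normalized counts in every library, 2795 genes (1540 higher, 1255 lower) were called, and 3 other complement genes, 1 higher and 2 lower. These 3 filters change by construction how many genes are tested, and the shares called under them were not computed. With the adjusted p-value alone, 12645 genes (6497 higher, 6148 lower) and 11 other complement genes, 8 of them lower, passed. With the same total in every library the median of all tested genes moved to -0.11, C3 was 2.53, C1ra -1.23 and C1s1 -1.39, 3938 genes were called (1775 higher, 2163 lower), and C8g reached -1.04. C8g also reached -1.0003 without control replicate 3, and Cfd passed the filter when any control library was left out. Over the 6 fits that left out 1 library each, 6 to 8 other complement genes were thus called. Cfd, at a mean of 2.49 in controls and 16.9 after dexamethasone, passed only through the group where it is high. The same holds for C5ar1, at 5.78 in controls, which was not tested with at least 10 in every library.

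Of the genes tested and not called, C3ar1, Colec12, Cfp and Cr2 changed sign with the setting (cause was not tested). C3ar1 was 0.0032 after quantile normalization and ranged from -0.338 to 0.0824 when 1 library was left out. Colec12 was -0.06 at the same total and after quantile normalization (-0.0588 and -0.0555). Cfp was -0.11 at the same total, -0.0225 with edgeR and -0.0042 with DESeq2, and ranged from -0.0566 to 0.0595 when 1 library was left out. Cr2 was 0.0031 after quantile normalization and ranged from -0.36 to 0.29. Of the genes under the limit for the test, Cfb was 0.0088 without dexamethasone replicate 2 (-0.38 with it). C4b was -0.30 with C4a summed into it, a sum made up mostly of C4a. Cr1l passed an adjusted p of 0.05 at the same total (-0.17, limma adjusted p = 5.12e-05), after quantile normalization (-0.24, limma adjusted p = 4.95e-07) and with edgeR (-0.08, adjusted p = 0.0363). Replicate numbers did not pair the samples (r of -0.0999, -0.105 and -0.0199 between same-numbered libraries), and no sample correlated best with its own number. With a replicate block 3897 genes were called, with 3 members and 6 other complement genes among them. Depth limits C4b, Cfb and Serping1, which had at most 15, 6 and 3 reads in a library.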

Other observations

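Under the limit for the test were 3 members and 19 of the other complement genes. Of these, Masp2, Cpn2, C5ar2 and Cfd had groups that did not overlap. C4b, C4bp and the regulator Vtn lay apart only after scaling, since their groups tied in reads. C4bp had 1, 0 and 0 reads in controls and 2, 1 and 1 reads after dexamethasone. Vtn had 5, 3 and 9 reads against 3, 1 and 0 reads. Of all tested genes, 74.7% had groups that did not overlap. That share covers tested genes only, and the share among genes under the limit was not computed. Masp2, a lectin pathway protease, had 14, 9 and 8 reads in controls and 3, 3 and 3 reads after dexamethasone, and the gene Tardbp on the opposite strand covers 54.9% of its exon bases. Cpn2, a subunit of the carboxypeptidase that inactivates C3a and C5a, had 10, 12 and 10 reads against 4, 4 and 4 reads. C5ar2, the further C5a receptor, had 4, 2 and 1 reads against 5, 7 and 9 reads. The groups of factor I (Cfi), the protease that breaks down C3b, overlapped: it had 3, 1 and 0 reads in controls and 0 reads in each dexamethasone library, at or under the 3 reads that a count of 0 allows. Except for the member C4b, these genes were chosen after their values were seen, and each was under the limit for the test used above.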
